A study of Mus musculus with 3 samples.

Results

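In wild-type male mouse caudate putamen, 14307 of the 35971 peaks of the promoter mark H3K4me3 (39.8%) were weakly marked and carried no peak of the retinoic acid receptor beta (RARβ). They were chosen from measured values by a pair of rules: fewer than 100 H3K4me3 tags (mapped reads, at most 1 per position) per kb of peak, and not 1 bp shared with any of the 8075 RARβ peaks. They are called weak RARβ-free peaks here. Both peak lists come from chromatin immunoprecipitation followed by sequencing (ChIP-seq). The series has 3 libraries, made with antibodies against RARβ, against H3K4me3 and against GFP, all from wild-type males on a mixed background of C57BL/6J and 129SvEms/j. The labels give neither the age of the mice nor how many animals went into a library, and the library made with the GFP antibody is not analysed here. Each antibody had 1 library, and the values below therefore carry no replicate error. Intervals are 95% intervals for counting error only (Wilson for shares, Newcombe for differences of shares, exact Poisson for tags and for numbers of peaks, and order statistics for medians), and they treat peaks as independent.

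H3K4me3 is histone H3 with 3 methyl groups on lysine 4, placed by the SET1 and MLL enzyme complexes. It is densest just downstream of active transcription starts, above all at promoters rich in CpG dinucleotides. Weaker H3K4me3 is known at promoters of low activity, at promoters used by a minority of the cells in a tissue, at some enhancers and at the edges of broad promoter domains. RARβ pairs with a retinoid X receptor on DNA, responds to retinoic acid, and is abundant in the striatum, of which the caudate putamen is a part. In whole tissue, fewer cells with the mark and less mark per cell cannot be told apart. Genes are not given in the peak lists, so peaks are named by their position in build mm9, the tissue was not checked against marker genes, and no annotation of the sites or sequence is given.

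Among the listed peaks, tag density had a low and a high centre, and the weak peaks made up the low one. Over all H3K4me3 peaks, the number per equal step of log density was highest at 53.8 to 64.0 tags per kb, with 4891 peaks. It fell to 1196 peaks at 181 to 215 tags per kb and rose again to 3561 at 430 to 512. Both rule values, 100 tags per kb for weak and 300 for strong peaks, lay on the slopes between these high points. No listed peak had fewer than 45.6 tags per kb. The list holds only peaks that passed the cutoff of the authors' peak caller. A low centre of the mark itself therefore cannot be told apart from this bound. Weak peaks numbered 15582 in all, of which 1275 held a RARβ peak and were left out. The lowest density among the weak RARβ-free peaks was 45.6 tags per kb, the median 68.3 and the quartiles 59.5 and 80.1. The filtered library held on average 25.4 tags per kb of the effective genome, so the median density was 2.69 times and the lowest 1.798 times that mean. The members nearest the limit were at chr10:74562450-74564650, with 220 tags, at chr2:30455517-30457497, with 198, and at chr11:78843901-78845391, with 149. Just outside it, at 100 tags per kb, were sites at chr10:80112536-80113955 with 142 tags, at chr16:38391667-38393176 with 151, and at chr2:126948547-126949936 with 139.

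**Figure D1:**
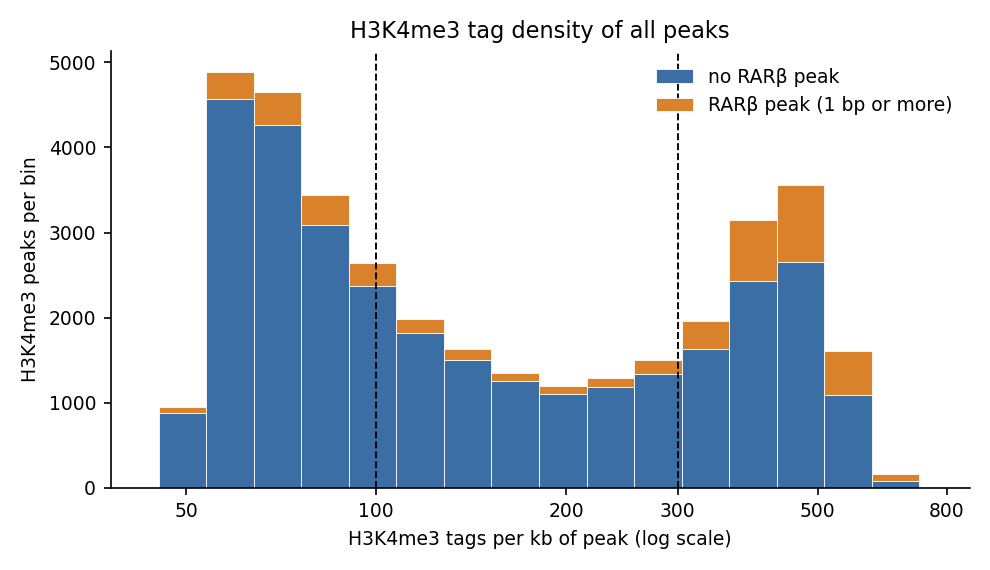
Number of H3K4me3 peaks per bin (vertical axis) by H3K4me3 tags per kb of peak (horizontal axis, log scale, bins of equal log width), for peaks without RARβ (blue) and, stacked on them, with RARβ (orange). The dashed lines stand at 100 and 300 tags per kb. The highest bin has 4891 peaks, and the second high point, at 430 to 512 tags per kb, has 3561.

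The share of peaks with RARβ lay between 7.39% and 10.98% from 50 to 300 tags per kb and was higher among strong peaks. These shares describe the rule and are no test. RARβ lay on 5 of the 32 peaks below 50 tags per kb, on 7.39% of the 10094 peaks of 50 to 75 tags per kb, on 9.60% of the 5456 peaks of 75 to 100 and on 8.18% of those of 200 to 250. It lay on 18.7% at 300 to 400 and on 32.5% (Wilson 95% interval 30.6 to 34.5) at 500 or more. Among weak peaks the share moved with width, from 3.23% of those of at most 800 bp to 26.0% (20.4 to 32.6) of the 196 wider than 3 kb. The part of peak length in this rise was not tested. The RARβ library held 2237580 filtered tags and its peaks had at least 7 tags. A RARβ site too weak to pass the peak caller would not be listed, and the part of depth in this was not tested.

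The weak RARβ-free peaks were short and held few tags, a description of values that enter the rule. Their median width was 1140 bp, with quartiles of 975 and 1379.5 bp and a range of 381 to 9658 bp. Between 1000 and 1500 bp lay 52.9% of them, and 145 were wider than 3 kb. The median was 80 tags, with quartiles of 60 and 108 and a range of 27 to 886. For comparison, the 1275 weak peaks with RARβ had a median width of 1377 bp and 99 tags, and the 8021 strong peaks without RARβ had 3035 bp and 1323 tags. Together the weak RARβ-free peaks covered 17.8 Mb, 21.9% of the length of all H3K4me3 peaks. They held 5.67% of the tags in peaks, whereas the strong peaks held 75.5%.

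A few members were long stretches of thin mark. The widest, at chr3:52098099-52107756, was 9658 bp wide and had 886 tags (exact Poisson 95% interval 829 to 946). It began 194 bp from another H3K4me3 peak and 16.0 kb from a strong peak of 11904 bp that held RARβ. The second, at chr2:71372101-71380096, had 728 tags and lay 159 bp from another H3K4me3 peak but 79.6 kb from a strong one. The third, at chr17:10685279-10692347, had 691 tags, lay 155 kb from a strong peak and had 1847.58 as its peak score, the highest of all members. The remaining members of the widest 5 were at chr19:32260641-32267464 with 512 tags and at chr8:12926067-12932148 with 607. These 5 differed in fold enrichment, from 3.64 on chromosome 19 to 13.59 on chromosome 3.

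All members passed the authors' peak caller at its p cutoff of 1e-05, many by a small margin. The deposited score is -10 times log10 of the p-value, so the cutoff stands at 50. The median score was 114, and 42.4% of the members scored under 100, against 31.4% of the weak peaks with RARβ and 1.05% of the peaks of 100 to 300 tags per kb without RARβ. Their fold enrichment, the tag pileup at the summit over the local background, had a median of 5.33 and a range of 2.24 to 15.96. None of the 14307 had an empirical FDR of at most 5%, whereas 35.0% of all H3K4me3 peaks did. Score, fold enrichment and FDR rest on the same tags whose density the rule bounds. Differences from denser peaks in these measures are therefore a description and no test. The members' FDR ran from 6.43% to 21.61% with a median of 14.97%. It did not order them by strength, because among the 13832 members with a score under 400 it rose with the score. The 1567 members with scores of at most 60 had a median FDR of 12.2%, and the 2748 with scores of 200 to 400 had 18.95%. The 475 above 400 had a median of 20.96%, within which the FDR fell again to 6.43% at the highest score.

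For 50.6% of the members the fold enrichment was, to the 2 decimals deposited, a whole tag number divided by 5.08, the expected pileup over the effective genome, as it is where the local background taken from the control does not exceed the genome-wide one. The share was 34.3% over the whole list, 49.3% for weak peaks with RARβ and 11.8% for strong peaks without RARβ. Rounding alone would give such a match for about 5.08% of folds. At such members the summit pileup was 29 tags at the median, with quartiles of 24 and 36. The control held 3703580 filtered tags, an average of 1.98 per kb of effective genome, and was scaled up 12.8 times.

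Few weak RARβ-free peaks were satellites of a strong peak, and isolated sites were more numerous. The gap, counted in bases from edge to edge to the nearest of the 10577 H3K4me3 peaks with 300 or more tags per kb, had a median of 53.4 kb (95% interval 52.0 to 55.2) with quartiles of 18.1 and 135 kb. Satellites, defined by a gap of at most 5 kb, numbered 1356, a share of 9.48% (Wilson 95% interval 9.01 to 9.97). Another 2492 lay 5 to 20 kb away and 5794 lay 20 to 100 kb away. Isolated sites, more than 100 kb away, numbered 4665, a share of 32.6% (31.8 to 33.4), and 84 members were over 1 Mb away. These values rest on where strong peaks begin. With strong peaks taken from 500 tags per kb, 1.796% were satellites, 75.7% were isolated and the median gap was 281 kb. Per kb of gap, members were densest next to strong peaks, with 430 in the first kb (3.01% of members, 2.74 to 3.30), 286 in the second (2.00%), 213 per kb from 2 to 5 kb, 102 per kb from 20 to 50 kb and 23.3 per kb from 100 to 200 kb. The first kb also held more than the second over the whole list, with 2.59% (2.43 to 2.76) against 1.77% of peaks, and among peaks of 100 to 300 tags per kb without RARβ, with 2.09% (1.82 to 2.41) against 1.44%.

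The satellite share lay within the range of the other groups of H3K4me3 peaks, which ran from 8.13% to 12.9%. Over the whole list 9.34% of peaks lay within 5 kb of another strong peak and 29.7% lay more than 100 kb from one. Weak peaks with RARβ were satellites in 10.2% of cases, a difference of -0.718 percentage points (members minus that group, Newcombe 95% interval -2.56 to 0.901). Strong peaks without RARβ lay that close to another strong peak in 9.81% of cases, a difference of -0.334 points (-1.15 to 0.466). Peaks of 100 to 300 tags per kb without RARβ did so in 8.13%, so members were higher by 1.35 points (0.595 to 2.08). Those of 100 to 300 tags per kb with RARβ did so in 12.9% (10.9 to 15.3), and the members' difference from them was -3.47 points (-5.90 to -1.343). For strong peaks with RARβ it was -0.225 points (-1.521 to 0.969). Isolation also differed. Members were isolated more often than strong peaks without RARβ, of which 23.9% were, by 8.74 points (7.53 to 9.95). They were isolated more often than weak peaks with RARβ by 3.67 points (1.004 to 6.21), and than peaks of 100 to 300 tags per kb with RARβ by 6.72 points (3.62 to 9.62). The difference from those without RARβ was 0.668 points (-0.570 to 1.90). These differences hold for the limit of 100 kb only. Within 1000 kb of another strong peak lay 99.41% of members, 98.97% of strong peaks without RARβ and 99.76% of weak peaks with RARβ. For peaks of 100 to 300 tags per kb without RARβ this share was also below that of members. Gaps over 1000 kb were thus rarer among members than in either of these groups without RARβ. No intervals were computed for these shares.

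**Figure D2:**
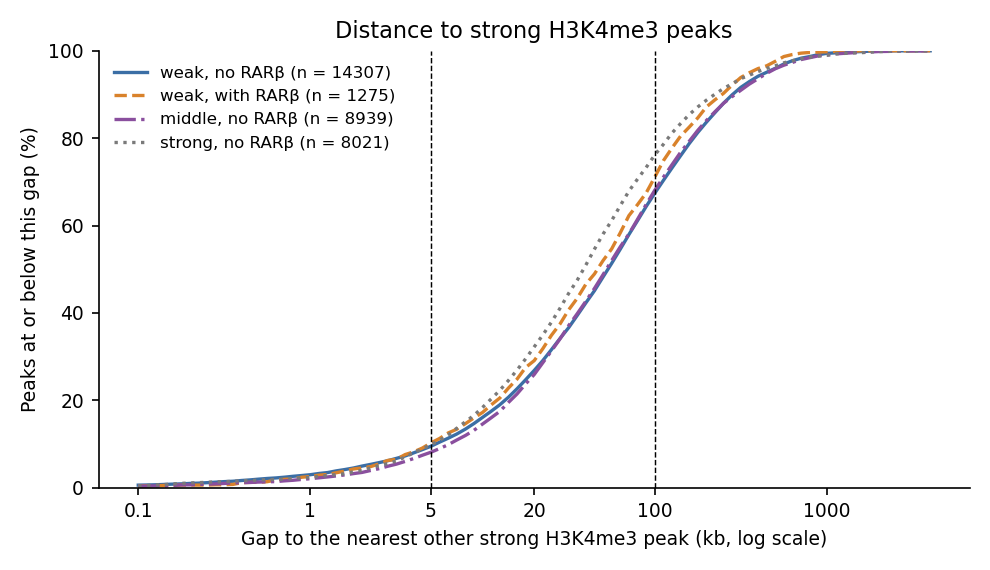
Percent of peaks at or below a given gap (vertical axis) by gap in kb to the nearest other strong H3K4me3 peak (horizontal axis, log scale), for weak RARβ-free peaks (solid) and 3 comparison groups. Dashed lines stand at 5 and 100 kb. At 5 kb the curves lie between 8.13% and 10.2%, and at 100 kb the strong peaks stand above the others.

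Among the satellites, the one with most tags lay at chr15:84802841-84807985, with 503 tags (exact Poisson 95% interval 460 to 549) over 5145 bp. Its strong neighbour, 3.99 kb away, was 7465 bp wide, had 2316 tags and held RARβ. The next were at chr5:124898961-124904285 with 476 tags, 256 bp from its strong peak, and at chr9:107528220-107533354 with 464 tags, 262 bp away. At chr11:22743972-22749006 a satellite of 459 tags lay 764 bp from a strong peak of 12296 bp and 4684 tags. At chr7:86428461-86433757 a satellite of 449 tags had a fold enrichment of only 2.73. These 5 satellites were 5035 to 5325 bp wide and had 84.8 to 97.8 tags per kb.

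Some satellites nearly touched their strong peak. On chromosomes 10 (40017466 to 40018861), 4 (68604977 to 68606068) and 5 (52501807 to 52503100) the gap was 1 bp, and on chromosomes 3 (78942988 to 78944912) and X (162792115 to 162793509) it was 2 bp. These satellites had 48.8 to 97.7 tags per kb beside strong peaks of 330 to 612 tags per kb. At these places adjoining stretches were listed as separate peaks. Within 1 kb of a strong peak lay 430 members.

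Satellite summits lay about as often away from the strong peak as towards it. The summit lay on the side facing it in 666 of 1356 satellites (49.1%, Wilson 95% interval 46.5 to 51.8), in 52.8% (48.1 to 57.5) of those within 1 kb and in 47.4% (44.2 to 50.6) of those 1 to 5 kb away. The strong peak lay at the higher coordinate for 699 satellites and at the lower for 657, a share of 51.5% (48.9 to 54.2) at the higher one. Both intervals over all satellites include an even split.

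Satellites gathered at wide strong peaks. Of the 10577 strong peaks, 1233 (11.7%) had at least 1 weak RARβ-free satellite, 112 had 2 or more and 46 had satellites on both sides. Each satellite was counted only at its nearest strong peak, here and below. Other groups of H3K4me3 peaks were not counted by the width of their strong neighbour, so a trait of members alone is not shown. Strong peaks with satellites had a median width of 4102 bp (95% interval 3949 to 4202), against 3091 bp (3067 to 3124) for those without. Their tags per kb had medians of 423 and 433. A satellite was found at 6.57% (4.78 to 8.96) of strong peaks of at most 2000 bp, at 10.0% of those of 3001 to 4000 bp, at 17.4% of those of 4001 to 6000 bp and at 28.0% (25.4 to 30.9) of those over 6000 bp.

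RARβ was more frequent on strong peaks with satellites, and among strong peaks of like width the interval of the difference lay above 0 in 1 of 6 width classes. RARβ lay on 31.7% of the strong peaks with satellites and on 23.2% of those without, a difference of 8.54 points (Newcombe 95% interval 5.86 to 11.3). Among strong peaks of 4001 to 6000 bp, satellites were found at 17.2% (14.5 to 20.3) of those with RARβ and at 17.4% (15.6 to 19.5) of those without. Over 6000 bp the shares were 28.9% (25.2 to 32.8) and 27.1% (23.2 to 31.3). At 2502 to 3000 bp they were 9.38% (6.85 to 12.7) with RARβ and 6.20% (5.18 to 7.40) without, a difference of 3.18 points (Newcombe 95% interval 0.379 to 6.66). In the class below it, up to 2500 bp, they were 8.49% and 5.89%, a difference of 2.60 points (-0.439 to 6.67). The intervals of the difference in that class and in the 4 others included 0.

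**Figure D3:**
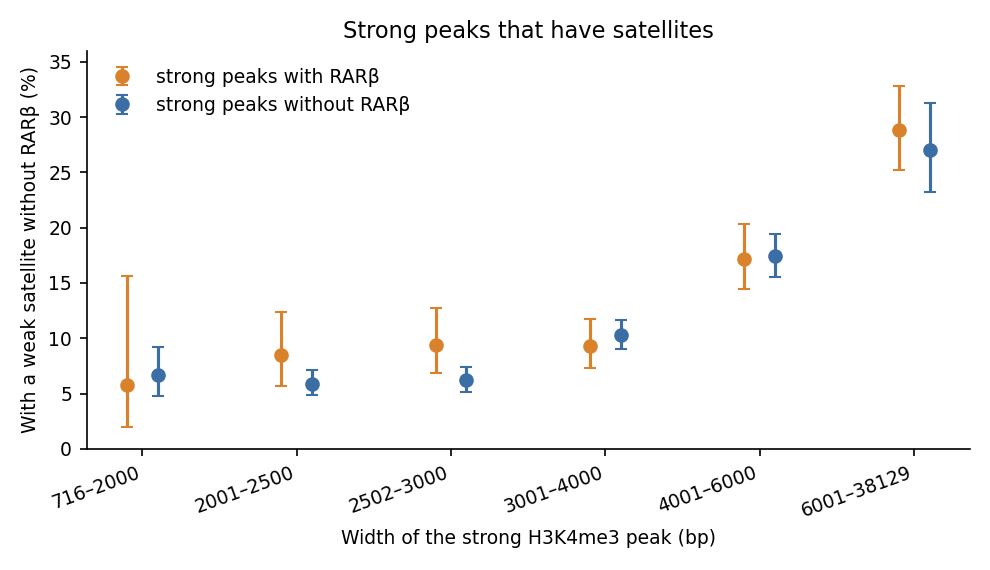
Percent of strong H3K4me3 peaks with at least 1 weak RARβ-free satellite within 5 kb (vertical axis) by width of the strong peak in bp (horizontal axis), for strong peaks with (orange) and without (blue) RARβ. Each satellite is counted only at its nearest strong peak. Points are shares and bars Wilson 95% intervals. The shares climb from 6.57% of all strong peaks of at most 2000 bp to 28.0% over 6000 bp, and at 2502 to 3000 bp the orange point, 9.38%, stands above the blue one, 6.20%.

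The strong peak with most satellites lay at chr9:108685034-108690298, with 2186 tags and no RARβ. Its 4 satellites lay on both sides, at 108679584 to 108680569 with 60 tags, 108683080 to 108684346 with 89, 108691440 to 108693349 with 161 and 108694747 to 108696076 with 84. Of the strong peaks with 3 satellites, the one at chr17:4993162-5002356 was 9195 bp wide and had all 3 on its higher side, 0.224, 1.73 and 4.51 kb away. That at chr2:91801236-91804684 held RARβ and had 2 satellites on its lower side and 1 on its higher side.

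The most isolated member lay at chr14:4437387-4438405, 4212 kb from a strong peak and 1228 kb from any other H3K4me3 peak, with 62 tags (exact Poisson 95% interval 47.5 to 79.5). Next were sites at chrX:141895905-141896665 with 42 tags, 3070 kb away, at chr5:61000253-61000904 with 40 tags, 2883 kb away, at chr14:6011749-6012644 with 73 tags and at chr1:104721429-104722534 with 92 tags. Of these 5, the sites on chromosome X and on chromosome 14 at 6011749 had a weaker H3K4me3 peak within 40.9 and 80.4 kb. The other 3 had none within 1228 kb.

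Isolated members could still be well enriched at the summit. The highest fold enrichment among them was 15.56, at chr8:106573474-106575618, with 199 tags, 195 kb from a strong peak. A pair on chromosome 7, at 6893269 to 6894408 with 112 tags and at 75518714 to 75519729 with 91 tags, had 15.02 each. The others were at chr4:104186875-104187927 with 14.97 and at chr19:49613814-49614835 with 14.63, the latter 1134 kb from a strong peak. Of the 5, 4 were 1016 to 1140 bp wide, at most the median width of all members. Isolation refers to strong peaks only. The nearest other H3K4me3 peak of any density lay 7.03 to 200.5 kb from these 5 sites. For all isolated members its median distance was 25.15 kb.

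Width fell as the gap grew. Median width was 1311.5 bp (95% interval 1266 to 1366) within 1 kb of a strong peak, 1195 bp at 5 to 10 kb, 1139 bp at 50 to 100 kb and 1074 bp (1042 to 1093) beyond 500 kb. Satellites as a whole had a median of 1239 bp (1221 to 1267) and isolated members 1099 bp (1091 to 1109), a ratio of 1.13 (1.10 to 1.16). Their tags went the same way, with medians of 88 (85 to 91) and 76 (75 to 78). Tags per kb, which the rule bounds for every member, had medians of 68.5 and 67.8. Across the 14307 members the rank correlation of width and gap was weak, with Spearman's rho of -0.133.

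Turned around, wide members were more often near a strong peak. Satellites made up 5.52% (Wilson 95% interval 4.04 to 7.48) of the 689 members of at most 800 bp, 18.4% (15.6 to 21.6) of the 635 wider than 2 but not 3 kb and 30.3% (23.5 to 38.3) of the 145 wider than 3 kb. Isolated sites made up 41.4% (37.7 to 45.1), 19.4% (16.5 to 22.6) and 20.7% (14.9 to 28.0) of the same classes. A wide peak reaches farther from its summit, and with the gap taken from the summit the satellite shares of the narrowest and the widest class were 5.22% and 24.8%.

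**Figure D4:**
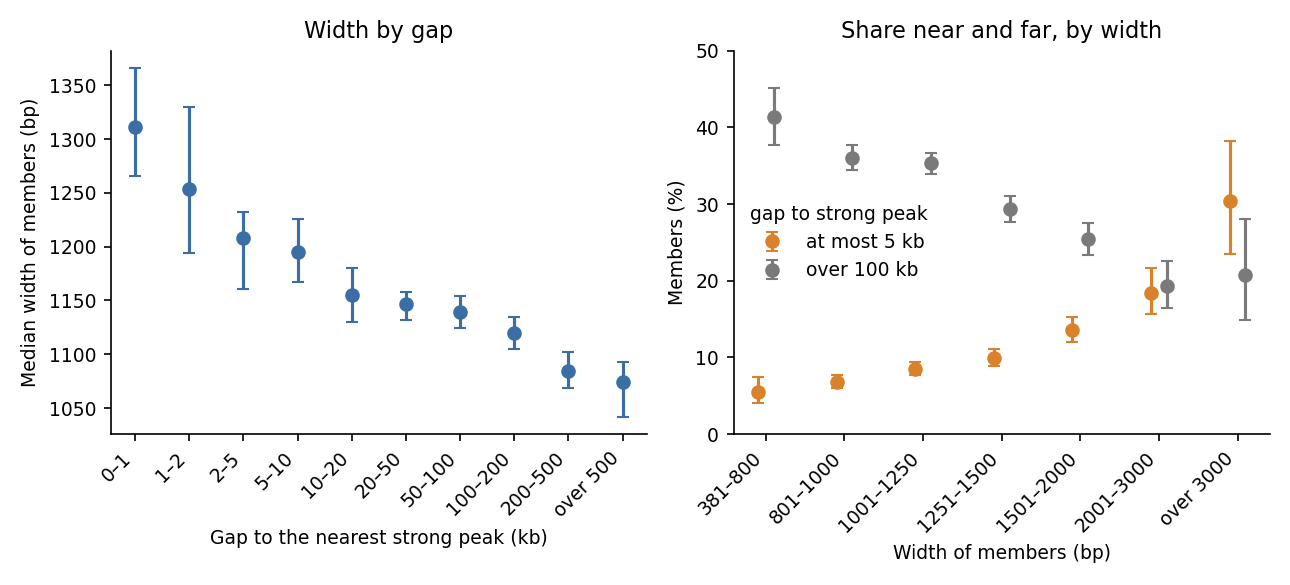
Left, median width in bp of weak RARβ-free peaks (vertical axis, not starting at 0) by gap in kb to the nearest strong peak, with 95% intervals of the median. Right, percent of members within 5 kb (orange) and over 100 kb (grey) of a strong peak by width of the member in bp, with Wilson 95% intervals. Median width runs from 1311.5 bp within 1 kb to 1074 bp beyond 500 kb, and the satellite share from 5.52% to 30.3%.

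Fold enrichment was lower beside strong peaks. Its median was 4.73 (95% interval 4.58 to 4.91) within 1 kb, 5.07 at 1 to 2 kb, 5.32 at 5 to 10 kb and 5.46 (5.32 to 5.52) at 100 to 200 kb. A fold equal to a whole tag number over the genome-wide background was found for 39.5% of satellites and for 52.6% of isolated members. The difference was -13.2 points (Newcombe 95% interval -16.1 to -10.2). This share also moved with width, from 73.0% of members of at most 800 bp to 33.1% of those over 3 kb. The parts of local background and of width in the fold difference were not tested. Scores had medians of 116 (112 to 122) for satellites and 111 (108 to 113) for isolated members. Scores under 100 were less frequent among satellites, with 40.0% against 44.3%, a difference of -4.32 points (-7.26 to -1.326).

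By the rule no member touched a RARβ peak, but some had one nearby. The median distance to the nearest RARβ peak was 73.9 kb (quartiles 23.4 and 196 kb), and 167 members (1.17%) lay within 1 kb of one. Within 5 kb lay 1015 members (7.09%, Wilson 95% interval 6.69 to 7.53). Of strong peaks without RARβ 4.34% had a RARβ peak that near, so the members' share was higher by 2.76 points (Newcombe 95% interval 2.13 to 3.36). It was higher than the 4.88% of the peaks of 100 to 300 tags per kb without RARβ by 2.22 points (1.597 to 2.83). A wider peak would have overlapped a nearby RARβ peak and left its group, and members were the narrowest of these groups. The part of width in this difference was not tested.

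Nearby RARβ was most frequent at satellites. It lay within 5 kb of 23.8% of the satellites and of 4.03% of the isolated members, a difference of 19.8 points (17.5 to 22.2). The definitions fix part of this difference, since a satellite lies within 5 kb of its strong peak and a RARβ peak on that strong peak is then often within 5 kb as well. Satellites whose strong neighbour held RARβ numbered 443, or 32.7% of satellites, and 63.9% (59.3 to 68.2) of these had a RARβ peak within 5 kb. Of the 913 satellites beside a strong peak without RARβ, 40 did (4.38%, 3.23 to 5.91), near the share of isolated members. Median width was 1295 bp (1236 to 1354) for satellites beside a strong peak with RARβ and 1226 bp (1205 to 1254) for those beside one without. Median fold enrichments were 4.93 (4.73 to 5.07) and 4.99 (4.91 to 5.12).

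Weak peaks tended to have weak neighbours. The nearest other H3K4me3 peak lay at a median of 10.96 kb from a member, with quartiles of 3.43 and 28.3 kb. It was weak for 49.0% of members (Wilson 95% interval 48.2 to 49.8), strong for 24.5% (23.9 to 25.3) and in between for 26.5%. In the whole list 43.3% of peaks were weak and 29.4% strong. Strong peaks without RARβ had a weak nearest neighbour in 37.5% of cases and a strong one in 37.9%. For 6400 members (44.7%) the nearest peak was itself a weak RARβ-free peak, and such peaks were 39.8% of the whole list. Weak peaks with RARβ had a weak nearest neighbour more often than members did, in 57.1% of cases (54.4 to 59.8).

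Runs of members with gaps of at most 5 kb and no other H3K4me3 peak between them numbered 1029 and took in 2217 members (15.5%). Like runs were not counted for other groups, and members were 39.8% of the list. How many such runs their number alone would give was not tested. Of the runs, 899 were pairs, 106 had 3 peaks, 19 had 4 and 5 had 5, the most found. The runs with 5 peaks are named after their values were seen. The run at chr3:52088260-52110290 contained the widest member of all and spanned 22.0 kb. Others were at chr10:74557422-74568725, with 60 to 284 tags per peak, at chr11:70384570-70401039, with 60 to 288, at chr19:7361759-7376779, with 56 to 107, and at chr7:19742442-19758942, with 61 to 120. That on chromosome 19 lay 32.9 to 45.2 kb from a strong peak, that on chromosome 11 from 3.18 to 17.0 kb and that on chromosome 7 from 1.67 to 8.52 kb.

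Weak RARβ-free peaks occurred on every autosome and made up 33.1% to 45.2% of its H3K4me3 peaks. They were 14111 of the 35195 autosomal H3K4me3 peaks, 40.1% (Wilson 95% interval 39.6 to 40.6). Chromosome 7 had the lowest autosomal share, 33.1% (31.1 to 35.1), and chromosome 18 the highest, 45.2% (42.5 to 47.9), followed by chromosome 1 with 43.5% (41.4 to 45.6). The intervals of chromosomes 4, 7 and 11 lay below the autosomal share and those of chromosomes 1, 3, 5 and 18 above it. Median width ranged only from 1106 to 1175 bp over the autosomes and median tags from 76 to 84.

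Autosomes rich in strong peaks had more members per Mb but a smaller share of them. Chromosome 11 had the most strong peaks per Mb of the span covered by peaks, 7.13, and the most members, 8.08 per Mb (exact Poisson 95% interval 7.58 to 8.61). Chromosome 14 had the fewest of both, with 3.04 strong peaks and 4.65 members per Mb (4.27 to 5.05). Over the 19 autosomes, members per Mb and strong peaks per Mb had a Pearson's r of 0.786 and a Spearman's rho of 0.668, with r of 0.550 without the 2 chromosomes farthest from the median. The share of members went the other way, with r of -0.709, rho of -0.812 and r of -0.726 without these 2. The 2 measures come from the same library and list, and the share has strong peaks in its denominator. Isolated members made up 22.6% (20.1 to 25.4) of those on chromosome 11 and 38.4% (34.7 to 42.2) on chromosome 13, and satellites 13.9% and 6.76%. The other H3K4me3 peaks differed in the same direction, with 15.8% (14.1 to 17.7) isolated on chromosome 11 and 35.2% (32.1 to 38.3) on chromosome 13.

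The X chromosome stood apart. It is present in 1 copy in males, and 194 of its 770 H3K4me3 peaks were members, 25.2% (22.3 to 28.4), below every autosome. Its share of strong peaks was 27.0%, within the autosomal range of 24.1 to 35.3%, whereas 47.5% of its peaks were of 100 to 300 tags per kb, against 26.8% over the autosomes. Of the members on X 52.6% (45.6 to 59.5) were isolated, and of its other H3K4me3 peaks 55.6% (51.5 to 59.6) were. Strong peaks were sparse there, with 1.29 per Mb of the span covered by peaks, against 3.04 to 7.13 on the autosomes. The copy number of X and the mark per copy cannot be told apart here. On chromosome Y, 2 of 6 peaks were members.

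**Figure D5:**
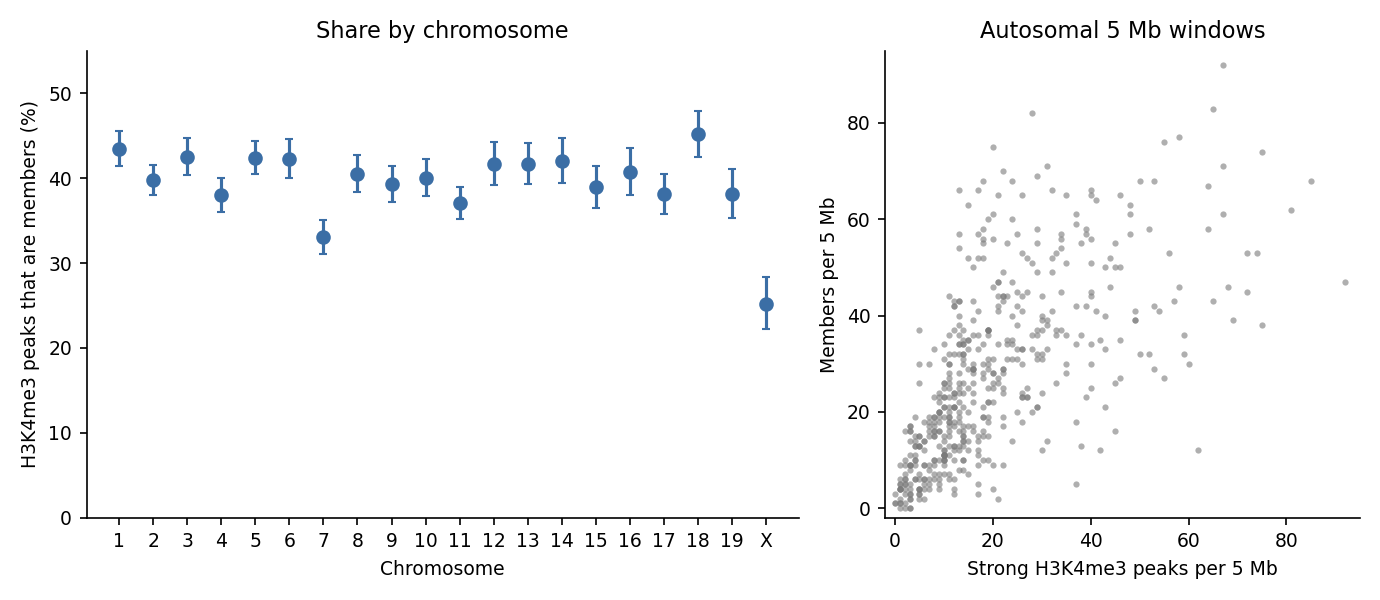
Left, percent of each chromosome's H3K4me3 peaks that are weak and RARβ-free (vertical axis) by chromosome, with Wilson 95% intervals. Right, each point is an autosomal 5 Mb window, with its number of strong H3K4me3 peaks (horizontal axis) and of members (vertical axis). Autosomal shares lie between 33.1% and 45.2% and X at 25.2%, and windows with more strong peaks tend to hold more members.

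In 5 Mb windows, members were found in 500 of the 504 autosomal windows with any H3K4me3 peak. Strong peaks were spread as widely, since 4 windows had no member and 3 had no strong peak. The number of members per window had a median of 25, with quartiles of 13 and 39.25 and a maximum of 92. That maximum, at 115 to 120 Mb of chromosome 11, lay beside 67 strong peaks. Members were 36.5% of the 252 H3K4me3 peaks there, against 40.1% over the autosomes. Next was chromosome 4 at 130 to 135 Mb with 83 members (41.3% of 201 H3K4me3 peaks) and 65 strong peaks. Chromosome 14 at 75 to 80 Mb followed with 82 members (59.85% of 137) and 28 strong peaks. Over the 504 windows, members and strong peaks had a Pearson's r of 0.648 and a Spearman's rho of 0.729. Among the 444 windows with at least 20 H3K4me3 peaks, the members' share had quartiles of 33.6% and 48.3%. It was highest, on the chromosomes other than 18, on chromosome 11 at 35 to 40 Mb, with 37 of 54 peaks (68.5%, Wilson 95% interval 55.3 to 79.3) and only 5 strong peaks. Next were chromosome 2 at 40 to 45 Mb, with 16 of 25, and chromosome 17 at 60 to 65 Mb, with 26 of 41. These windows were picked for their high shares, and the interval given does not allow for that choice.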

How the data were processed

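Peak lists of 2 ChIP-seq libraries, anti-H3K4me3 and anti-RARβ, were used. The submitters' processing notes name CASAVA 1.8.2 for base calls, Bowtie as aligner and mm9 as build. Per the file headers, MACS 1.4.2 called each list from its own library against 1 shared control, whose antibody they do not name, at a p cutoff of 1e-05. The H3K4me3 library had 47461843 filtered tags. The authors deposited tag counts per peak without normalization, the fold enrichment as a ratio of pileup to local background, a peak score of -10 times log10 of the p-value (its column name was lost and was recognised from the column order) and an FDR in percent.

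Tags were divided by peak length, and peaks sharing at least 1 bp were counted as overlapping. Gaps count the bases between edges. No significance test was run, since there was 1 library per antibody. The groups of peaks and the limits of 5 and 100 kb were chosen with earlier results of these data known. Peaks named are the 5 satellites with most tags and with the smallest gap, the 5 isolated members with the largest gap and with the highest fold enrichment, the 5 widest members, the 3 peaks on each side of the density limit, the 3 strong peaks with most satellites, and the 3 windows with most members and with the highest share; chromosome 18 was counted but not named from. Gap and interval functions were tested on simulated data. Planned comparisons with genes and sequence were not run, since an annotation or genome of build mm9 was not used here. Python 3.11.15, numpy 2.4.6, pandas 2.3.3, scipy 1.17.1 and matplotlib 3.10.9 were used.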

Additional observations from a re-analysis of the deposited data

How the results depend on the processing

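Of 67 alternatives, 65 were planned and 2, with the gap taken from the member's summit to the strong peak's edge, were chosen after seeing the data. Of these, 38 stayed within the 95% interval of the reported value and 29 did not. With the density limit lowered by 25 tags per kb there were 9375 members with a median width of 1043 bp and 66 tags, making up 26.3% of autosomal and 15.1% of X peaks. With it raised by 25 there were 16773 members, the width was 1185 bp, the tags 88 and the shares 47.0% and 30.9%. With only H3K4me3 peaks of score 100 or more there were 8236 members of 1281 bp and 98 tags, 31.6% of them isolated, with a width ratio of satellites to isolated members of 1.17 and shares of 28.3% on autosomes and 17.0% on X. With strong peaks at 200 or more tags per kb, 12.1% were satellites and 25.2% isolated, and the median gap was 39.4 kb. At 500 or more the values were 1.796%, 75.7% and 281 kb. Satellites within 2 kb made up 5.00% and within 10 kb 16.1%, and 8.53% by the gap from the summit. Sites over 50 kb away made up 51.8% and over 200 kb 16.3%. The median distance from summit to summit was 56.9 kb. Excluding peaks with RARβ within 1 kb, or requiring RARβ to cover 10% of the peak, moved no value out of its interval. The satellite, isolated and gap values therefore depend on where a strong peak is taken to begin. Limiting the list to an FDR of at most 5% left no member, so that alternative gave no value. No paired analysis was possible because there was 1 library per antibody. The RARβ list lacks weaker sites, since no peak had fewer than 7 tags, and the part of depth in this was not tested.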
